A study of Homo sapiens with 6 samples.

Results

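Kinesins are motor proteins that use ATP to step along microtubules or to take their ends apart. One branch of the family builds the mitotic spindle, moves chromosomes and completes cytokinesis, and the transcripts of these motors peak in G2 and mitosis, so that in a cell population they follow how many cells divide. Another branch carries vesicles, mitochondria and other cargo outward along microtubules in cells at any stage, epithelial cells of the thyroid included. The kinesin motor genes were taken as every gene whose symbol, looked up from its Ensembl identifier, has the form KIF plus a number and optional letter, or KIFC plus a number. There were 40 of them among the 16574 genes analysed. The 10 mitotic kinesins are KIF11, KIF20A, KIF23, KIF2C, KIF4A, KIF18A, KIF14, KIF15, KIF22 and KIFC1. A set of 17 was counted as transport kinesins, and 13 fell in neither set.

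RNA was sequenced from Nthy-ori 3-1, a wild-type human line labelled as normal thyroid follicular epithelium. One group of 3 libraries came from cells given 2.5 µM BDE209 (decabromodiphenyl ether, a brominated flame retardant) for 27 days, and the control group of 3 from cells given as much of the solvent DMSO over the same time. The series asks how long exposure acts on the growth of thyroid cells. Separate cultures are not stated in the labels for the replicates; the p-values therefore rest on the spread among these libraries, which could be technical.

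Levels are FPKM, fragments scaled to transcript length and library total, which allows levels of different genes to be set side by side. The FPKM of a library summed to 567810 to 829739, and both replicate 2 libraries (819086 and 829739) lay well above the other 4. Depth in fragments is not recorded in FPKM. For genes with 1 annotated transcript, low values were taken as FPKM times transcript length in kilobases. They were commonest at 0.075 in replicates 1 and 2 of both groups, 0.115 with DMSO replicate 3 and 0.095 with BDE209 replicate 3. Values under 0.04 FPKM were left out, so these peaks need not be the step of 1 fragment. They are at most a rough guide to depth. The follicular markers were near 0: of 8, FOXE1 alone passed 1 FPKM (0.84 to 1.48), with thyroglobulin (TG) at 0.02 to 0.12. Among epithelial markers KRT18 read 36.19 to 55.92 and CDH1 at most 0.25, while mesenchymal vimentin (VIM) read 6816.94 to 9206.88. The endothelial, immune and ciliated markers measured stayed under 1 FPKM, with CD14 highest at 0.74. All 7 markers of dividing cells were present, from 30.98 FPKM for MKI67 upward.

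The cells carried far more mitotic than transport kinesin transcript. Summed over its genes, the mitotic set made 421.4, 490.1 and 405.8 FPKM with DMSO (replicates 1, 2 and 3) and 362.1, 479.4 and 352.3 with BDE209. The transport set made 182.7, 150.4 and 196.7 FPKM with DMSO and 191.2, 145.7 and 202.2 with BDE209. All 10 mitotic kinesins, 13 transport and 7 other kinesins reached 1 FPKM in 3 or more libraries and were tested, 30 in all. The remaining 10 (4 transport and 6 other) stayed at or under 0.98 FPKM in every library. Because the filter looks at levels, counts below concern those 30 and not the whole family.

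**Figure D1:**
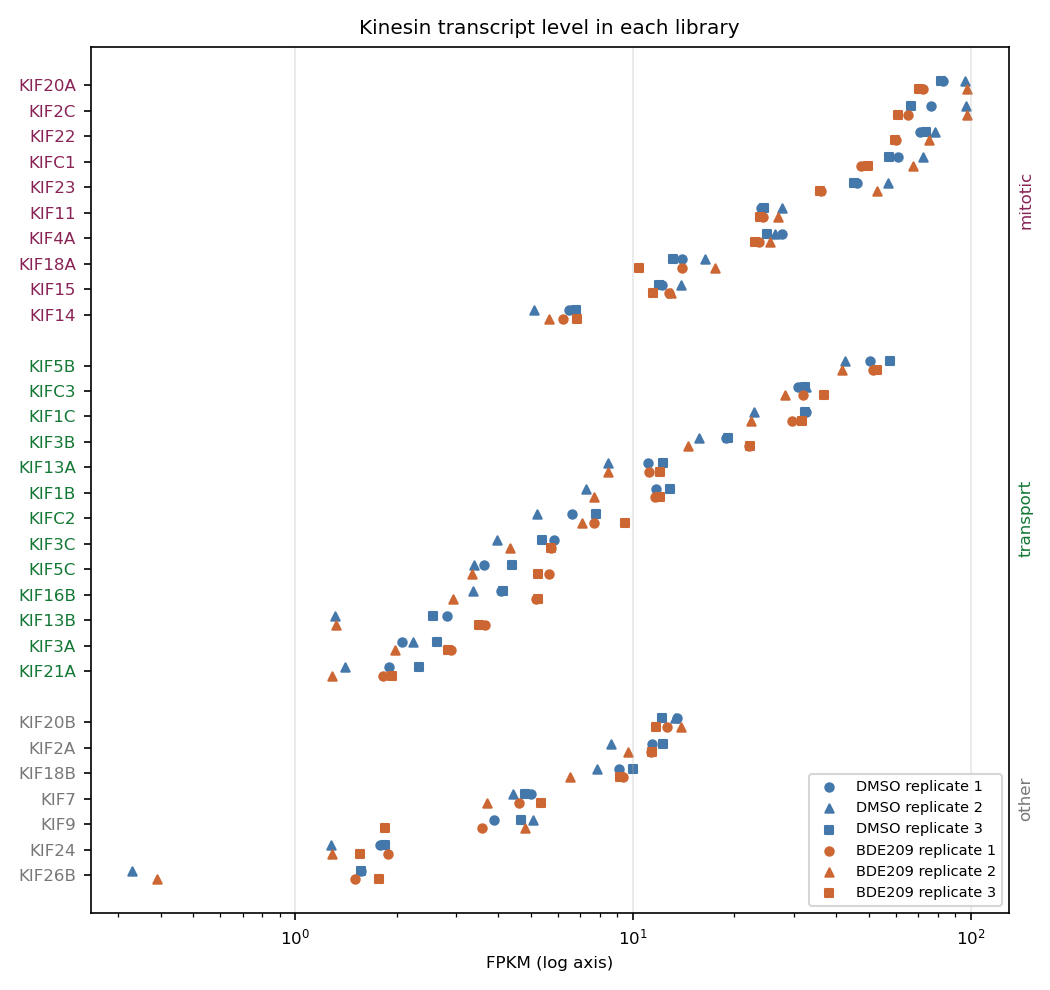
Transcript level of the 30 tested kinesins in each of the 6 libraries, in FPKM on a log axis, with DMSO in blue and BDE209 in orange and one marker shape per replicate number. Genes are ordered by mean level within the mitotic, transport and other sets; KIF20A stands highest, at 70.38 to 97.70 FPKM.

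The 4 mitotic kinesins that stood lower in every replicate number, the most abundant one (KIF20A) and the most abundant transport motor are shown by the 250 bases before their RefSeq start sites (GRCh38.p14, read on the gene's strand), because mitotic genes share promoter elements. Capitals mark 2 kinds of element, found on either strand: the cell cycle genes homology region (CHR; TTTGAA or TTTAAA) and the CCAAT box (CCAAT, or ATTGG on the other strand).
KIF20A, chr5:138178862-138179111, plus strand: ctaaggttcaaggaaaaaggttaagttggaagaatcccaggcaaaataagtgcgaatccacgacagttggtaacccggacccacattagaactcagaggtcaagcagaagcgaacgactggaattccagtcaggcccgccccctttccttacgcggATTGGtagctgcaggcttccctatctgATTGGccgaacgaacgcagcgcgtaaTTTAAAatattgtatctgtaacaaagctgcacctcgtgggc
KIF23, chr15:69414099-69414348, plus strand: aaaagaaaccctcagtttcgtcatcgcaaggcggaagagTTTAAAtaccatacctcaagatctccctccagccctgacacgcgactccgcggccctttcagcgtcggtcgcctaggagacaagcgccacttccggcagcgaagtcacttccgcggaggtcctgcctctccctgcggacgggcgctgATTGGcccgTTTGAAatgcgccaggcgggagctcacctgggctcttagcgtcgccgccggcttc
KIFC1, chr6:33391573-33391822, plus strand: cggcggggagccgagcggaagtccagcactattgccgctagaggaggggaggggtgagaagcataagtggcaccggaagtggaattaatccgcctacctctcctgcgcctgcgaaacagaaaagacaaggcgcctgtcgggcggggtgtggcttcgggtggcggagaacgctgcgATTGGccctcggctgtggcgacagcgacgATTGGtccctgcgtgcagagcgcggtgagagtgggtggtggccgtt
KIF22, chr16:29790501-29790750, plus strand: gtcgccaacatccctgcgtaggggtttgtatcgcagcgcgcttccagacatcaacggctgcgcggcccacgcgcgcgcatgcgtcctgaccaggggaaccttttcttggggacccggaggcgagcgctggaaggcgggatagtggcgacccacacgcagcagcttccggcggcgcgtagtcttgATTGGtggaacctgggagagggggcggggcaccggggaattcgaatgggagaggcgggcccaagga
KIF4A, chrX:70289854-70290103, plus strand: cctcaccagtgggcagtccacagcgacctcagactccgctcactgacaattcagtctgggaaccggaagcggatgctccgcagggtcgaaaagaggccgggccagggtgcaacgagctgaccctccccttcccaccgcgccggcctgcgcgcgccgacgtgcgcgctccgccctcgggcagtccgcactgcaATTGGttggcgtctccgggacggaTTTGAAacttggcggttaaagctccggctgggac
KIF5B, chr10:32056426-32056675, minus strand: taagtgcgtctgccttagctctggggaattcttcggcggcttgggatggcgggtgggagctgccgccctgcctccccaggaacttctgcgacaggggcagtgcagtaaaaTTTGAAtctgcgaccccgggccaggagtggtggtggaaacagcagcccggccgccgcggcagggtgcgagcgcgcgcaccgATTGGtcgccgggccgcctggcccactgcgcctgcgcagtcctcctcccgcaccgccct

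KIF20A has 2 CCAAT boxes, which begin 94 and 67 bases before the start, and a CHR letter match at 41. KIF23 has a CCAAT box at 64 followed by a CHR match at 55, and another CHR match farther out, at 211. In KIF4A the same order stands at 58 and 34. KIFC1 has its CCAAT boxes at 75 and 46, and its 1 CHR match falls in the 50 bases after the start. KIF22 holds a CCAAT box at 66 and no CHR letters in this window, and a further KIF22 start in the table holds neither. In KIF5B the CHR letters lie farther out, at 140, and the CCAAT box at 59.

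Over windows of 250 bases before to 50 bases after each start, a CHR match stood in 9 of the 10 mitotic kinesins (90.0%), all but KIF22. It stood in 2 of 12 transport kinesins with an entry (16.7%), KIF5B and KIF16B, and in 27.9% of the 27305 genes of the table. A CHR match and a CCAAT box in one window occurred in 7 mitotic kinesins (70.0%), in 1 transport kinesin (8.33%) and in 11.2% of all genes. Among the 11 other kinesins with an entry, KIF18B, KIF20B and KIF4B had both; the first 2 act in mitosis, and KIF4B is a near-identical copy of KIF4A. KIF13B, KIF21B, KIF5A, KIFC2, KIFC3, KIF26B and KIF27 are not in the table. A match of letters is a description and does not show that a factor binds there.

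Across all 6 libraries no kinesin passed the test. On log2(FPKM + 1), limma called 0 of the 30 at an adjusted p under 0.05, against 0.0% of all 11223 genes tested, and 0 of the 30 had an unadjusted p under 0.05, against 1.57% of all genes. Limma without its trend option called 0 as well. The replicate number as a block in the fit left the calls at 0 (0.0% of all genes) and put 4 kinesins at an unadjusted p under 0.05, namely KIF23, KIFC2, KIFC1 and KIF22, a share no larger than the 16.5% of all genes. None of the 30 tested kinesins had its BDE209 values wholly apart from its DMSO values, whereas 5.22% of all genes did. The FPKM of bulk RNA cannot tell fewer dividing cells from less RNA per cell.

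Within replicate numbers the mitotic kinesins stood lower on median in replicates 1 and 3, and the transport kinesins had small medians whose sign was not stable. The median difference of the 10 mitotic kinesins, as BDE209 minus DMSO in log2(FPKM + 1), was -0.20, -0.05 and -0.16 in replicates 1, 2 and 3. That of the 13 tested transport kinesins was 0.04, -0.02 and 0.08, and their median over 6 libraries, 0.051, turned to -0.016 without DMSO replicate 2 and -0.004 without BDE209 replicate 3. Those 2 runs kept the partner of the library left out, so shifts between replicate numbers enter their values. All genes tested had medians of 0.01, 0.02 and 0.00. The mitotic median minus the transport median was thus -0.25, -0.02 and -0.24. The mitotic sum in BDE209 came to 85.9%, 97.8% and 86.8% of its DMSO partner, and the transport sum to 105%, 96.9% and 103%. The ratio of mitotic to transport FPKM, which a single scaling factor per library leaves as it is, was 2.31, 3.26 and 2.06 with DMSO and 1.89, 3.29 and 1.74 with BDE209. The treated libraries of replicates 1 and 3 had the lowest ratios of the 6, and both replicate 2 libraries the highest. Of the mitotic kinesins, 6 were lower in both replicates 1 and 3 and 0 were higher in both, against 35.1% and 37.9% of all genes. Of the tested transport kinesins, 3 were lower in both and 7 higher in both.

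**Figure D2:**
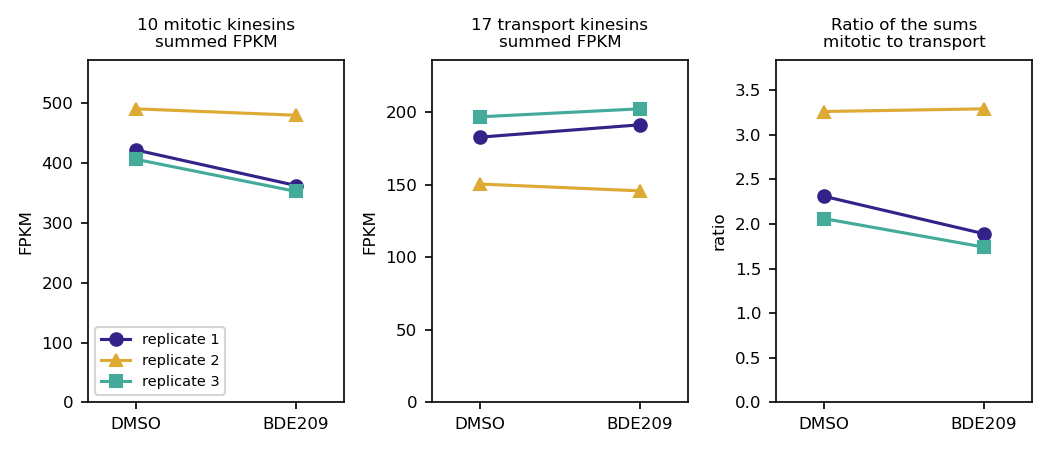
Summed FPKM of the mitotic and of the transport kinesins, and the ratio of the sums, in DMSO and BDE209, with a line per replicate number and axes that start at 0. The mitotic sum and the ratio are lower in BDE209 in replicates 1 and 3 (2.31 to 1.89 and 2.06 to 1.74), while the replicate 2 line is nearly level (3.26 to 3.29).

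Markers of dividing cells were lower in the same pairs when summed. The summed level of the 7 markers, all of them detected in every library, was 854.2, 983.89 and 850.87 FPKM with DMSO (replicates 1, 2 and 3) and 764.21, 982.56 and 730.82 with BDE209. MKI67, a protein of cycling cells, read 47.93, 36.73 and 50.19 FPKM with DMSO and 42.13, 30.98 and 39.84 with BDE209, lower in all 3 pairs. PCNA and MCM2, which serve DNA replication, were slightly higher in all 3 pairs, by at most 0.07 and 0.05. TOP2A, which untangles DNA, differed by -0.06, 0.05 and -0.10 in replicates 1, 2 and 3. None of the 7 markers was called by limma over 6 libraries (smallest adjusted p = 1.00, 0 at an unadjusted p under 0.05) or with the replicate block (smallest adjusted p = 0.214, 2 at an unadjusted p under 0.05). In replicates 1 and 3 alone the mitotic markers CCNA2, CDC20 and CCNB2 were called as lower, with differences of -0.39, -0.33 and -0.39 (limma adjusted p = 0.0261, 0.0360 and 0.0433), in a fit that called 6.81% of all genes and 2.33% as lower. Mesenchymal genes differed as well, though not all in one direction. The summed level of 8 mesenchymal markers, all detected, was 14608.74, 9952.41 and 13705.5 FPKM with DMSO and 12275.43, 9174.47 and 11904.82 with BDE209, lower in all 3 pairs and lowest in replicate 2 of either group. VIM made most of this sum, at 9206.88, 7736.86 and 8139.47 FPKM with DMSO and 7520.28, 7183.23 and 6816.94 with BDE209. COL1A1 moved less, at 2427.36, 862.58 and 2557.78 against 2270.48, 787.17 and 2559.90. Fibronectin (FN1) read 1148.34, 560.44 and 1158.66 FPKM with DMSO and 788.43, 426.29 and 809.87 with BDE209, and the collagen COL3A1 26.52, 0.93 and 25.84 against 7.53, 1.23 and 7.20. The proteoglycans went the other way: LUM read 7.26 to 8.21 FPKM with DMSO and 23.38, 11.09 and 21.96 with BDE209 (replicates 1, 2 and 3), and DCN 13.35, 17.47 and 12.94 against 31.15, 19.68 and 27.61. What part the number of dividing cells or the mesenchymal genes had in the kinesin values was not tested.

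Among motors of cytokinesis, KIF23 stood lowest against DMSO. KIF23 (ENSG00000137807), the motor of the centralspindlin complex that bundles microtubules between separating chromosomes, read 46.13, 56.90 and 45.11 FPKM with DMSO (replicates 1, 2 and 3) and 36.03, 52.79 and 35.85 with BDE209. It stood lower in all 3 pairs, at 78.1%, 92.8% and 79.5% of DMSO, but BDE209 replicate 2 lay above DMSO replicates 1 and 3, so the groups overlapped. The difference over 6 libraries was -0.26 (SE 0.198; limma adjusted p = 1.00) in the fit without the replicate block. With the block the SE was 0.0667 (limma adjusted p = 0.222). In replicates 1 and 3 alone, 2 libraries a group, the difference was -0.34 (SE 0.0708; limma adjusted p = 0.0366). This fit leaves out replicate 2, the pair with the smallest KIF23 difference, so its p is no separate support. KIF23 was the 1 kinesin of the symbol rule called in it. All genes had 6.81% called in that fit, 2.33% as lower. At an unadjusted p under 0.05 it held 9 of the 30 kinesins (4 mitotic, 4 transport and 1 other), against 21.9% of all genes. KIF20A (ENSG00000112984), which brings the chromosomal passenger complex to the midzone, read 83.04, 96.27 and 81.95 FPKM with DMSO and 72.52, 97.70 and 70.38 with BDE209. Replicate 2 was high in both groups and level between them, and the other pairs stood at 87.3% and 85.9%. KIF14 (ENSG00000118193), which acts with citron kinase at the midbody, was the least abundant mitotic kinesin, at 6.47, 5.09 and 6.78 FPKM with DMSO and 6.21, 5.64 and 6.85 with BDE209, with the groups mixed.

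KIF4A (ENSG00000090889), a chromosome-bound motor that limits the length of midzone microtubules, read 27.56, 26.30 and 24.91 FPKM with DMSO and 23.62, 25.40 and 23.03 with BDE209. It was lower in all 3 pairs with a small overlap, and the difference was -0.12 (SE 0.112; limma adjusted p = 1.00). The SE with the replicate block was 0.0593 (limma adjusted p = 0.35). Reads that match KIF4B, the copy of KIF4A, may have been divided between the 2 genes, but KIF4B was listed at 0.04 FPKM or less. KIF22 (ENSG00000079616), which binds chromosome arms and pushes them toward the spindle equator, read 70.97, 78.49 and 73.58 FPKM with DMSO and 60.07, 75.41 and 59.71 with BDE209. Replicates 1 and 3 with BDE209 lay below every DMSO library, and BDE209 replicate 2 lay among them. The difference was -0.20 (SE 0.148; limma adjusted p = 1.00), and -0.27 in replicates 1 and 3 alone (SE 0.0701; limma adjusted p = 0.0740). With the replicate block over 6 libraries the SE was 0.0642 (limma adjusted p = 0.249).

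Motors that shape the spindle were split. KIFC1 (ENSG00000237649), a minus-end motor that gathers spindle poles and extra centrosomes, read 60.85, 72.44 and 57.34 FPKM with DMSO and 47.23, 67.75 and 49.64 with BDE209. It was lower in all 3 pairs, with a difference of -0.22 (SE 0.187; limma adjusted p = 1.00) over 6 libraries and -0.28 (SE 0.0753; adjusted p = 0.0781) in replicates 1 and 3. With the replicate block over 6 libraries the SE was 0.066 (limma adjusted p = 0.236). KIF2C (ENSG00000142945), which takes apart microtubule ends at kinetochores, read 76.31, 96.69 and 66.58 FPKM with DMSO and 65.25, 97.48 and 61.00 with BDE209. Its replicate 2 libraries were the highest of each group and nearly equal.

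KIF11 (ENSG00000138160), which pushes spindle poles apart and without which the spindle collapses, hardly differed: 23.93, 27.64 and 24.42 FPKM with DMSO and 24.35, 26.82 and 23.86 with BDE209, a difference of -0.02 (SE 0.121). Its backup motor KIF15 (ENSG00000163808) read 12.20, 13.93 and 11.96 FPKM with DMSO and 12.77, 12.95 and 11.49 with BDE209. In both, each BDE209 value lay within 0.10 of its DMSO partner on the log2 scale. KIF18A (ENSG00000121621), which damps chromosome movement at the spindle equator, read 13.94, 16.33 and 13.13 FPKM with DMSO and 14.02, 17.50 and 10.45 with BDE209, low in BDE209 replicate 3 alone. In all, KIF23, KIFC1, KIF22 and KIF4A were the 4 of 10 mitotic kinesins that were lower in all 3 pairs, against 17.3% of all genes tested, and 0 were higher in all 3, against 21.9%.

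**Figure D3:**
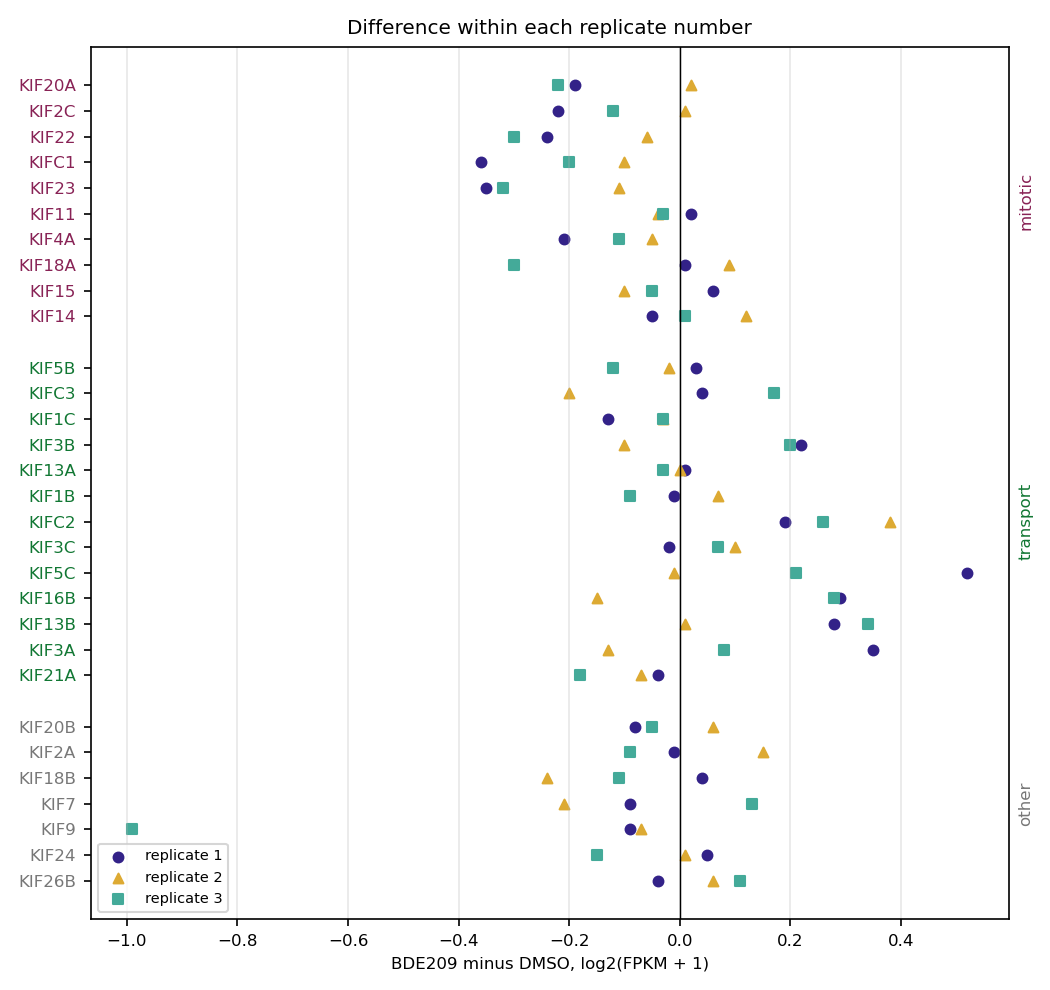
Difference between BDE209 and DMSO on the log2(FPKM + 1) scale within each replicate number, for the 30 tested kinesins in the same order as the levels. For KIF23, KIFC1, KIF22, KIF20A and KIF2C the replicate 1 and 3 points lie between -0.36 and -0.12 and the replicate 2 points between -0.11 and 0.02; KIF9 in replicate 3 is the farthest point, at -0.99.

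KIF5B, the most abundant transport motor, stayed within 0.12 of its DMSO partner on the log2 scale in every pair. KIF5B (ENSG00000170759), the broadly expressed conventional kinesin that moves mitochondria and vesicles, read 50.38, 42.41 and 57.64 FPKM with DMSO and 51.54, 41.77 and 52.89 with BDE209. Replicate 2 was the lowest in both groups, and the difference was -0.04 (SE 0.170; limma adjusted p = 1.00). The SE of KIF5B with the replicate block was 0.056 (limma adjusted p = 0.757). KIF5C (ENSG00000168280), its relative best known from neurons, read 3.63, 3.38 and 4.40 FPKM with DMSO and 5.65, 3.34 and 5.24 with BDE209. It stood at 156%, 98.8% and 119% of DMSO, and over 6 libraries the difference was 0.24 (SE 0.198; limma adjusted p = 1.00). The SE with the replicate block was 0.113 (limma adjusted p = 0.346). KIF5A, the neuronal member, did not exceed 0.10 FPKM. Of the 5 neuronal markers, 3 passed 1 FPKM: TUBB3 read 148.95 to 193.28 and MAP2 0.45 to 2.22, while RBFOX3 was at most 0.03 and SYP at most 0.21. SNAP25 read 7.93, 8.90 and 6.14 FPKM with DMSO and 12.23, 12.45 and 9.74 with BDE209, higher in all 3 pairs.

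KIF3A and KIF3B form the heterotrimeric kinesin that builds cilia, with KIFAP3 as its adaptor. KIF3B (ENSG00000101350) read 18.84, 15.69 and 19.20 FPKM with DMSO and 22.07, 14.59 and 22.24 with BDE209, at 117%, 93.0% and 116% of DMSO. KIF3A (ENSG00000131437) read 2.07, 2.24 and 2.64 FPKM with DMSO and 2.90, 1.97 and 2.84 with BDE209, likewise higher in replicates 1 and 3 and lower in replicate 2. KIF3C, which pairs with KIF3A in neurons, lay between 3.96 and 5.83 FPKM with the groups mixed. KIFAP3 read 11.34, 8.67 and 9.71 FPKM with DMSO and 10.72, 10.34 and 9.95 with BDE209.

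The vesicle motors related to KIF1 were mixed. KIF16B (ENSG00000089177), which carries early endosomes, read 4.07, 3.36 and 4.14 FPKM with DMSO and 5.18, 2.94 and 5.23 with BDE209. KIF13B (ENSG00000197892), which moves membrane scaffold proteins, read 2.82, 1.31 and 2.56 FPKM with DMSO and 3.65, 1.32 and 3.50 with BDE209. In both genes BDE209 replicates 1 and 3 lay above every DMSO library and replicate 2 did not, and the differences in replicates 1 and 3 alone were 0.28 (SE 0.0864; limma adjusted p = 0.113) and 0.31 (SE 0.0969; limma adjusted p = 0.118).

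KIF1C, a carrier of integrins and secretory vesicles, read 32.48, 22.80 and 32.41 FPKM with DMSO and 29.55, 22.37 and 31.75 with BDE209, lower in each pair by no more than 0.13. KIF1B lay between 7.28 and 12.87 FPKM and KIF13A, another endosome motor, between 8.44 and 12.32, with differences within 0.10 of 0 in every pair. KIF21A, which restrains microtubule growth at the cell edge, read 1.90, 1.41 and 2.32 FPKM with DMSO and 1.82, 1.29 and 1.93 with BDE209, lower in all 3 pairs. KIF1A, a neuronal relative, was listed at 0.01 FPKM or less.

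KIFC2 and KIFC3 step toward the microtubule minus end. KIFC2 (ENSG00000167702) read 6.62, 5.19 and 7.80 FPKM with DMSO and 7.70, 7.05 and 9.51 with BDE209. It was the transport kinesin with the largest difference over 6 libraries, 0.28 (SE 0.178; limma adjusted p = 1.00), and was higher in all 3 pairs, at 116%, 136% and 122% of DMSO, replicate 2 included. With the replicate block the SE was 0.0687 (limma adjusted p = 0.222). KIF13B was the other tested transport kinesin higher in all 3 pairs, by 0.01 in replicate 2, and KIF1C and KIF21A were the 2 lower in all 3. KIFC3, a motor of cell junctions and the Golgi, read 30.88, 32.56 and 32.45 FPKM with DMSO and 31.83, 28.20 and 36.70 with BDE209, with no common direction.

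Among kinesins of neither set, 0 of the 7 tested were higher in all 3 pairs and KIF9 was the 1 lower in all 3. KIF9 (ENSG00000088727), a motor of motile cilia, read 3.87, 5.06 and 4.68 FPKM with DMSO and 3.57, 4.79 and 1.85 with BDE209. BDE209 replicate 3, at 39.5% of its partner, set most of its difference of -0.38 (SE 0.271; limma adjusted p = 1.00), which was -0.10 without that library. The SE of KIF9 with the replicate block over 6 libraries was 0.198 (limma adjusted p = 0.384). An antisense gene overlaps KIF9, and whether the counting used strand is not given in the sources used here. KIF20B, a motor of cytokinesis, lay between 11.70 and 13.87 FPKM and KIF2A, which trims microtubules at spindle poles, between 8.63 and 12.25, with the groups mixed in both. KIF18B, which helps KIF2C at microtubule ends, stood at 103%, 82.8% and 91.7% of DMSO, with BDE209 libraries at 9.37, 6.51 and 9.17 FPKM. KIF7, a regulator of Hedgehog signalling at the cilium tip, lay between 3.69 and 5.36 FPKM. KIF24, a centriole protein, lay between 1.28 and 1.88.

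KIF26B, a relative without motor activity, read 1.57, 0.33 and 1.57 FPKM with DMSO and 1.50, 0.39 and 1.77 with BDE209, low in replicate 2 of either group. Of the 10 kinesins under the filter, KIF27 and KIF21B were the highest, at 0.48 to 0.98 and 0.15 to 0.45 FPKM. KIF17 was listed at 0.06, 0.06 and 0.07 with DMSO and 0.12, 0.12 and 0.08 with BDE209, and KIF4B at 0.04, 0.03 and 0.02 and at 0.00, 0.01 and 0.00. Their groups do not overlap, but both genes lie near 0 and under the filter. The share of such genes, 5.22%, was counted over tested genes alone. KIF6 stayed at or under 0.39, KIF12 at or under 0.18, and KIF25 and KIF26A at or under 0.05 FPKM.

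CENPE, a kinesin of the kinetochore whose symbol falls outside the rule, read 12.92, 11.14 and 12.96 FPKM with DMSO and 10.20, 11.68 and 8.84 with BDE209. BDE209 replicates 1 and 3 lay below every DMSO library, while replicate 2 lay above its partner. Its difference was -0.25 (SE 0.139; limma adjusted p = 1.00), and with the replicate block the SE was 0.112 (limma adjusted p = 0.33). CENPE was called in replicates 1 and 3 alone at -0.41 (limma adjusted p = 0.0418). That fit called 6.81% of all genes, 2.33% as lower.

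The list of partners of mitotic kinesins was also lower on median in replicates 1 and 3. Beside spindle and midzone proteins and mitotic kinases, the list holds CCNB1, CDK1, the kinesin CENPE and the transcription regulators FOXM1, MYBL2, LIN9 and E2F4. It is thus a broad list of mitotic and cell cycle genes. Of 28 partners tested, limma called 0, with 0 at an unadjusted p under 0.05, and 26 had a negative difference over 6 libraries, as did 5231 of all 11223 genes. The fit with the replicate block called 0 as well (smallest limma adjusted p = 0.216). It put 9 of the 28 at an unadjusted p under 0.05, against 16.5% of all genes. Their medians were -0.22, 0.00 and -0.23 in replicates 1, 2 and 3, and 12 were lower in all 3 pairs, against 17.3% of all genes. CDCA8, of the chromosomal passenger complex that KIF20A carries, read 48.20, 53.27 and 49.56 FPKM with DMSO and 34.02, 49.41 and 32.65 with BDE209. PLK1, a mitotic kinase, and TPX2, which activates Aurora A on the spindle, had BDE209 values wholly under their DMSO values, as did the cell cycle repressor E2F4, which makes 3 of 28 against 5.22% of all genes in either direction. PLK1 read 110.47 to 119.13 FPKM with DMSO and 94.16 to 101.20 with BDE209, and TPX2 175.52 to 200.52 and 146.26 to 165.17. RACGAP1, the partner of KIF23 in centralspindlin, read 57.01, 51.72 and 55.46 FPKM with DMSO and 46.92, 53.06 and 43.75 with BDE209. In replicates 1 and 3 alone 3 of the 28 were called, all lower, against 6.81% of all genes called and 2.33% as lower. They were CDCA8, CENPE and PRC1, the bundling protein that KIF4A binds. At an unadjusted p under 0.05 the fit of replicates 1 and 3 held 18 of the 28, against 21.9% of all genes.

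The partners of transport kinesins, 22 tested, had medians of -0.05, -0.01 and -0.04 and 7 members lower and 3 higher in all 3 pairs, against 17.3% and 21.9% of all genes. Limma called 0 of them, with 0 at an unadjusted p under 0.05. The replicate block left the calls at 0 and put 2 of the 22 at an unadjusted p under 0.05, against 16.5% of all genes. MAPK8IP1, a scaffold that links cargo to conventional kinesin, had the smallest unadjusted p without the block. It read 2.36, 1.97 and 2.53 FPKM with DMSO and 3.21, 2.06 and 3.23 with BDE209. MAP7D3, which recruits conventional kinesin to microtubules, was the 1 member whose groups did not overlap, at 15.59, 15.01 and 15.65 FPKM with DMSO and 14.83, 13.73 and 14.19 with BDE209, against 5.22% of all genes. FEZ1, an adaptor of conventional kinesin, read 17.19, 8.54 and 15.30 FPKM with DMSO and 25.51, 9.43 and 24.66 with BDE209, with a difference of 0.44 (SE 0.430; limma adjusted p = 1.00) over 6 libraries. The SE with the replicate block was 0.108 (limma adjusted p = 0.221). FEZ1 was the 1 of 22 called in replicates 1 and 3 alone (limma adjusted p = 0.00934), where 6.81% of all genes were called. KLC1, a light chain of conventional kinesin, read 74.02, 78.56 and 77.46 FPKM with DMSO and 70.23, 75.50 and 68.54 with BDE209. Dynein and dynactin, the opposite motor, had medians of -0.03, 0.01 and -0.10 over 24 tested members, with 0 called by limma and 0 at an unadjusted p under 0.05. The replicate block left the calls at 0 and put 2 of the 24 at an unadjusted p under 0.05, against 16.5% of all genes. DYNC1I1, an intermediate chain, read 1.32, 1.51 and 1.71 FPKM with DMSO and 0.80, 1.35 and 0.83 with BDE209.

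**Figure D4:**
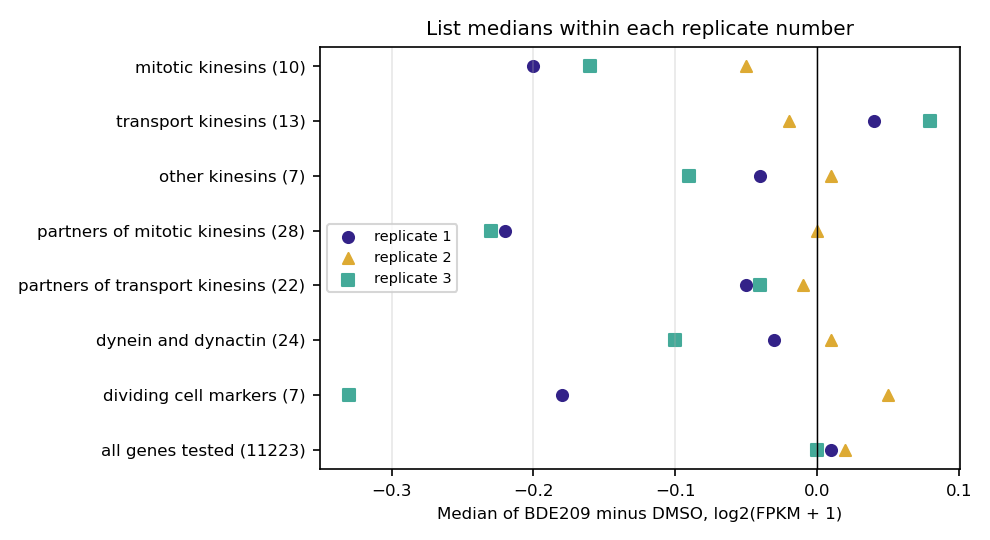
Median difference between BDE209 and DMSO within each replicate number, on the log2(FPKM + 1) scale, for each gene list with its number of tested genes. The mitotic kinesins, their partners and the markers of dividing cells lie between -0.33 and -0.16 in replicates 1 and 3 and between -0.05 and 0.05 in replicate 2.

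Whether replicate 2 responded differently was asked with an interaction term, added after the pattern was known, with 1 library per group in replicate 2 and the spread taken from replicates 1 and 3. Limma called 0 of the 30 kinesins in this test, against 0.615% of all genes. At an unadjusted p under 0.05 there were 2 of 30, against 11.1% of all genes. For KIF23 the effect in replicate 2 was 0.23 higher than in the others (limma adjusted p = 0.586) and for KIF16B it was 0.43 lower (limma adjusted p = 0.347). A difference in response between replicates was therefore not shown for any kinesin, and a miss in so small a design does not show that the responses were alike.

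The replicate 2 libraries differed from the others in their kinesin makeup with or without BDE209. In DMSO, replicate 2 stood above the mean of replicates 1 and 3 in 9 of 10 mitotic kinesins (median 0.21) and below it in 12 of 13 transport kinesins (median -0.36). In BDE209 the counts were 9 of 10 (median 0.39) and 13 of 13 (median -0.42). KIF14 was the mitotic exception in both, at -0.32 and -0.18, and KIFC3 the transport exception in DMSO, at 0.04. These directions depend on scaling: with each library brought to the same total, the mitotic medians were -0.26 and -0.13 and the transport medians -0.81 and -0.92, against -0.52 and -0.58 for all genes. The mitotic set stood above the transport set under both scalings. That is no separate check, because 1 factor per library leaves the gap between sets as it is, apart from the pseudocount. Transcript length went with the sets, with a median of 3645.5 bases for the longest coding transcripts of the mitotic and 6325 for those of the tested transport kinesins in GENCODE v29, against 3385.5 over all genes tested, and its part in the replicate 2 shift was not tested.

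**Figure D5:**
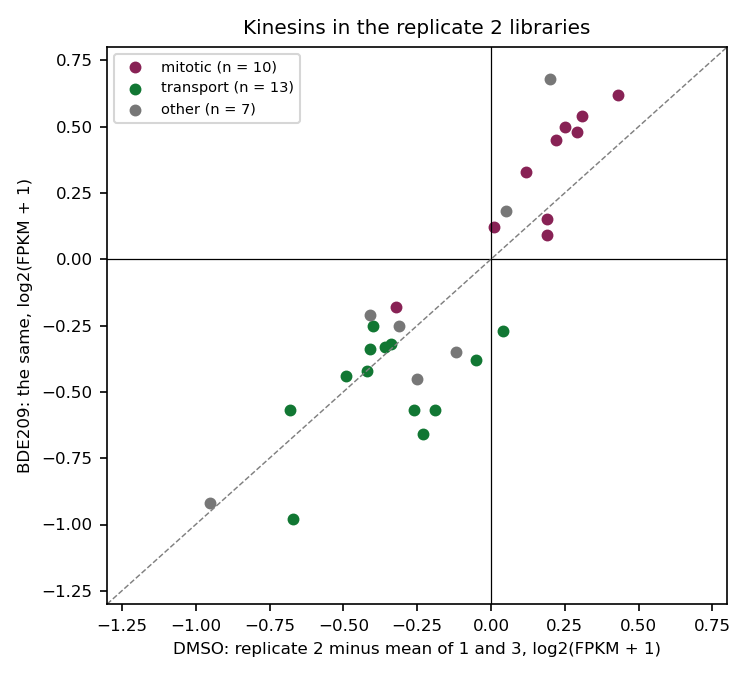
Replicate 2 minus the mean of replicates 1 and 3 on the log2(FPKM + 1) scale, in DMSO (x axis) and BDE209 (y axis), a point for each tested kinesin, with the dashed line where both are equal. Of the 10 mitotic kinesins, 9 lie above 0 in both groups, and the 13 transport kinesins lie below 0 with BDE209.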

How the data were processed

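The authors deposited 1 table per library, which holds FPKM values to 2 decimals under human Ensembl identifiers, per the file headers. Bowtie 0.12.2, Bowtie2, RSEM and the builds mm8 and mm10 are named, with no roles, per the submitters' processing notes; both builds are mouse ones although the cells are human. A human build, an annotation and strand use were not given in the sources used here.

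Of 16614 rows, the 40 rows of 20 identifiers listed more than once were left out, and 16535 of the 16574 genes matched a symbol. Limma 3.58.1 (R 4.3.3, trend and robust options) was run on log2(FPKM + 1) for the 11223 genes that reached 1 FPKM in 3 or more libraries, with treatment as the only term and Benjamini-Hochberg adjustment over all of them. The SE of this fit includes the spread between replicate numbers, which the fit with the replicate block takes out. Limma was tested on simulated data whose differences were larger than any kinesin difference over 6 libraries. That test therefore does not tell whether differences as small as these would be called. Calls were made at an adjusted p under 0.05. The fit of replicates 1 and 3 alone leaves out the pair with the smallest median difference of the mitotic kinesins. Its calls, for any gene named here, are therefore descriptions and no separate support. Every difference is BDE209 minus DMSO, and the log2(FPKM + 1) scale understates changes of low genes. Transport kinesins were KIF5A, KIF5B, KIF5C, KIF3A, KIF3B, KIF3C, KIF17, KIF1A, KIF1B, KIF1C, KIF13A, KIF13B, KIF16B, KIF21A, KIF21B, KIFC2 and KIFC3. Set medians are descriptions without a test.

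The replicate numbers, taken from the titles, were used as pairs. Deviations from the group means correlated at 0.738, 0.875 and 0.824 between same-numbered libraries. Replicates 1 and 3 also correlated across numbers (0.644 and 0.646), and replicate 2 correlated negatively with both (-0.822 to -0.755). Deviations cancel out within a group of 3 libraries, so a replicate 2 shift shared by both groups can give such values by itself. They hardly tell whether replicates 1 and 3 pair by number. Named were all kinesins, in full the mitotic ones, transport ones with a mean FPKM of at least 1 and others that pass the filter, and up to 4 partners of each list by smallest p; KLC1, FOXE1, MKI67, RACGAP1, PRC1, E2F4, KIFAP3 and other markers were added once their values were known. The members and lists were chosen with earlier results of these data known. Promoters came from RefSeq (GRCh38.p14), matched by symbol for 33 of 40 kinesins. Alternatives covered the pseudocount, filter, scaling, block, trend option, left-out libraries and the definition of transport kinesins.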

Additional observations from a re-analysis of the deposited data

How the results depend on the processing

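No kinesin was called in all 6 libraries, with or without the replicate block (0 calls each), at a pseudocount of 0.1, without a filter, at a minimum FPKM of 5, with either other scaling or without the trend option. Leaving out 1 library gave 0 to 1 calls over all genes and 0 among kinesins. Each such run kept the partner library, so its values also hold shifts between replicate numbers. Without replicate 2 in both groups there were 764 calls over all genes and 1 kinesin of the symbol rule, KIF23. CENPE, outside the rule, was called as well. The mitotic median of -0.118 stayed negative in every alternative run, from -0.255 to -0.038 with 1 library left out and -0.167 without replicate 2. The transport median of 0.051 had no firm direction: -0.001 at a minimum FPKM of 5, -0.001 with every other kinesin counted as transport, 0.107 without replicate 2, and -0.016 to 0.179 with 1 library left out. The mitotic minus transport difference of -0.169 ran from -0.435 to -0.034 with 1 library left out. For the mitotic median and for that difference the ends of the range came without BDE209 replicate 2 (lowest) and without BDE209 replicate 3 (highest); for the transport median they came without DMSO replicate 2 (lowest) and without BDE209 replicate 2 (highest).

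Of 31 named genes (CENPE included), 12 kept their direction in every alternative; the largest difference over 6 libraries among those that did not was 0.21. With quantile normalization KIF14 and KIF2A stood at -0.02 and KIF26B at -0.01. With each library scaled to the same total, KIF13A stood at 0.01 and KIF1B at 0.00. With 1 library left out, the ranges of the genes that changed sign were -0.32 to 0.03 for KIF2C, -0.07 to 0.05 for KIF11, -0.23 to 0.11 for KIF18A, -0.07 to 0.03 for KIF15, -0.08 to 0.10 for KIF14, -0.15 to 0.07 for KIF5B, -0.09 to 0.09 for KIFC3, -0.23 to 0.08 for KIF1C, -0.15 to 0.13 for KIF13A, -0.24 to 0.18 for KIF1B, -0.09 to 0.16 for KIF3C, -0.02 to 0.54 for KIF13B, -0.22 to 0.01 for KIF21A, -0.09 to 0.03 for KIF20B, -0.12 to 0.11 for KIF2A, -0.19 to 0.05 for KIF18B, -0.16 to 0.06 for KIF7, -0.14 to 0.05 for KIF24 and -0.27 to 0.35 for KIF26B. Without replicate 2 in both groups, KIF15 stood at 0.00, KIF14 at -0.02, KIF2A at -0.05 and KIF7 at 0.02. The ranges with 1 library left out also hold shifts between replicate numbers, as the partner library stayed in. Within pairs KIF26B differed by -0.04, 0.06 and 0.11 in replicates 1, 2 and 3. The cause of each sign change was not tested. FPKM carry no counts, so no counting interval can be given for kinesins near 1 FPKM.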

Other observations

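KIF5B made a steady part of the transport kinesin transcript, at 27.6%, 28.2% and 29.3% of the summed FPKM with DMSO (replicates 1, 2 and 3) and 27.0%, 28.7% and 26.2% with BDE209. The mitotic kinesins made 64.7%, 71.8% and 62.3% of all kinesin FPKM with DMSO and 60.4%, 72.0% and 58.8% with BDE209.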
